A study of Mus musculus with 6 samples.

Results

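The mitochondrial ribosomal protein genes of the mouse aorta were taken as all genes whose symbol is Mrpl or Mrps followed by a number, with an optional letter. Of the 18191 genes with values, 18070 carried a symbol, and 78 were members, 49 of the large subunit (Mrpl) and 29 of the small subunit (Mrps). RNA of the whole aorta was compared between 3 libraries of wild-type (WT) male mice and 3 libraries of male *Npr1+/-* mice, which carry 1 copy of *Npr1* disrupted in the germline by CRISPR-Cas9 and therefore in every cell type. *Npr1* codes for the receptor of atrial and brain natriuretic peptide. Neither genotype received a treatment in the labels, and their age and strain were not given in the sources used here. Libraries are numbered 1 to 3 within each genotype, and nothing in the labels says what a number marks or whether each library came from a separate mouse, so that p-values measure only the spread between these libraries.

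Mitochondria translate the few messenger RNAs of their own genome on a ribosome whose RNAs are encoded in mitochondrial DNA, whereas all of its proteins are encoded in the nucleus, translated in the cytosol and imported. The small subunit binds and decodes the messenger RNA, and the large subunit joins the amino acids into chains that enter the respiratory chain and the ATP synthase. In the wall of the aorta these genes are read in smooth muscle cells, and in the surrounding fat, which in mice resembles brown fat along much of the vessel, in cells that are packed with mitochondria.

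The estimated counts summed to between 13510970 and 16664343 per library, and the 78 members together took between 0.219% and 0.369% of them. Every member had at least 140 estimated counts in each library (the lowest was *Mrpl47* in WT 3) and at most 2002 (*Mrpl42* in *Npr1+/-* 1), and all 78 passed the filter on low counts that left 13938 genes for testing. *Npr1* itself, the targeted gene, had 453, 611 and 633 CPM (counts divided by the total of their library, with TMM scaling between libraries) in WT 1 to 3 and 295, 452 and 527 CPM in *Npr1+/-* 1 to 3. It was lower in each *Npr1+/-* library than in the WT library with the same number, but the groups overlapped (log2 fold change -0.41, SE 0.27, Benjamini-Hochberg adjusted p = 0.999 from the quasi-likelihood test of edgeR). The smooth muscle markers *Acta2* and *Myh11* were among the abundant genes of all 6 libraries, in keeping with an aorta, with at least 5833 and 2732 CPM.

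The members were spread over 17 chromosomes, with 11 on chromosome 11, 8 on chromosome 17 and 7 on chromosome 6. A start site of another protein-coding gene on the opposite strand lay within 1000 bp upstream of 18 members in GENCODE M21 on GRCm38, which is 23.1% of the members against 9.48% of the 13498 tested genes found in that annotation. *Mrps12* starts 172 bp from *Sars2*, the mitochondrial seryl-tRNA synthetase, *Mrps27* starts 81 bp from *Ptcd2*, an RNA-binding protein of mitochondria, and *Mrps18c* starts 29 bp from Helq, a DNA helicase of the nucleus. Exons of 23 members overlapped those of another gene, among them *Mrps6* with *Slc5a3*, *Mrps25* with *Nr2c2* and the neighbours *Mrpl46* and *Mrps11* with each other. The strand setting of the libraries was not given in the sources used here, so that the counts of these members are uncertain where reads of the overlapping gene could have been assigned to them.

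Promoter windows of RefSeq on GRCm38.p6, from 250 bases before to 50 bases after the start, were found for 69 members, in 75 windows. The elements of 3 factors known to act on genes of mitochondrial function were searched on both strands. These were NRF1 (GCGCANGCGC), which acts on nuclear genes for respiration, the ETS factor GABPA (CCGGAAG) and YY1 (AAGATGG). At least 1 of the 3 was present in 43 windows, which is 57.3% of the members' windows against 27.9% of the 14115 windows of tested genes and 18.0% of all 32851 windows. By element, NRF1 was found in 17.3% of the members' windows against 8.95% of the tested genes' windows, ETS in 34.7% against 15.8%, and YY1 in 17.3% against 6.77%. The TATA box (TATAAA) was found in 6.67% against 7.48%, the GC box (GGGCGG) in 52.0% against 59.9%, and the CCAAT box (CCAAT) in 40.0% against 37.3%. None of these strings of letters contains another, and they are counts of letters in a window and not of bound sites.

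The 160 bases before the start are shown for the members with the highest and the lowest ratio of library 1 to libraries 2 and 3, the pattern described further on, among members with a single window. Capitals mark an NRF1, ETS or YY1 element on either strand. The 4 members with the highest ratio were *Mrpl34* (chr8:71464766-71464925, plus strand), *Mrps36* (chr13:100744660-100744819, minus strand), *Mrpl30* (chr1:37890317-37890476, plus strand) and *Mrpl12* (chr11:120484477-120484636, plus strand).
Mrpl34: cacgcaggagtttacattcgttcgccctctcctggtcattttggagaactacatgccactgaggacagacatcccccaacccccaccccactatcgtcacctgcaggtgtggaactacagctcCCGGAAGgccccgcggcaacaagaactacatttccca
Mrps36: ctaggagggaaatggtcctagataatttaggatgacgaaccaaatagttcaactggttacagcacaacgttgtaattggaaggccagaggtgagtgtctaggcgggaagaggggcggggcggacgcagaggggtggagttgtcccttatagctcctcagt
Mrpl30: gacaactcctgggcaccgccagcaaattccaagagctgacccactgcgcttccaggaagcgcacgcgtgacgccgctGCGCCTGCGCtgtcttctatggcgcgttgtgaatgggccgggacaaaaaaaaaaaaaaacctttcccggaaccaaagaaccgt
Mrpl12: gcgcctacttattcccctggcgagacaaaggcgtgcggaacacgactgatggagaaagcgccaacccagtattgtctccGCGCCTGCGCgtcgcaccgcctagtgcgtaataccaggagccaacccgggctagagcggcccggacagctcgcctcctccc
The 4 members with the lowest ratio were *Mrpl33* (chr5:31613791-31613950, plus strand), *Mrps25* (chr6:92184024-92184183, minus strand), *Mrpl52* (chr14:54426749-54426908, plus strand) and *Mrps6* (chr16:92058176-92058335, plus strand).
Mrpl33: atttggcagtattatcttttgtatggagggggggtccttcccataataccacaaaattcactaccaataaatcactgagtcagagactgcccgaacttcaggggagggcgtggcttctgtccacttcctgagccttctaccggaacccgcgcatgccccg
Mrps25: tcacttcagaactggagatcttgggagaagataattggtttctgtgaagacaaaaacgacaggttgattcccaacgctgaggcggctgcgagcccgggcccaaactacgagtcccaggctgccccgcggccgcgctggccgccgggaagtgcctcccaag
Mrpl52: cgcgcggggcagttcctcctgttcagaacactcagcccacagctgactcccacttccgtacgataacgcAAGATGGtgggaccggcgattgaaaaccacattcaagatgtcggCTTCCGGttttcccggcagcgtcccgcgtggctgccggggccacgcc
Mrps6: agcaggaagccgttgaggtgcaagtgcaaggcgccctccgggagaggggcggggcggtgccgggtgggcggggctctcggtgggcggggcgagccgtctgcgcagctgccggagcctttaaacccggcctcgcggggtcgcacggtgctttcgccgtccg
An element was printed in capitals in 3 of the 4 members with the highest ratio and in 1 of the 4 with the lowest, which are too few promoters for a comparison. The window of *Mrpl33* also held an ETS element from base -3 to base 3. It crosses the start, so that it was counted but not printed in capitals. The window of *Mrps6* held 4 matches to the GC box in the bases shown and none to the 3 elements in capitals.

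Compared per transcript length, the members differed from each other far more than between libraries. FPKM (fragments scaled by transcript length and library size, the authors' values) averaged between 4.99 and 151 over the 6 libraries, a range of 30.2-fold. The median member had 31.0 FPKM, against 4.71 for all genes of the table. The median was 31.6 FPKM in the large and 27.2 FPKM in the small subunit. The order of the members was close to the same in every library, with Spearman correlations between 0.944 and 0.987 over the 78 members in the 15 pairs of libraries, which share the same gene models.

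The highest member was *Mrpl42*, a protein of the large subunit that bacterial ribosomes lack. It had 203, 116 and 106 FPKM in WT 1 to 3 and 212, 124 and 144 FPKM in *Npr1+/-* 1 to 3, and it ranked first in each library. Behind it, *Mrps21*, *Mrpl30*, *Mrpl33*, *Mrpl52* and *Mrpl34* averaged 113 ± 26.4, 104 ± 42.3, 97.1 ± 14.3, 93.2 ± 18.6 and 92.3 ± 47.2 FPKM (SD over 6 libraries), and neighbours among these 5 did not differ beyond that spread. *Mrps21*, *Mrpl30*, *Mrpl33* and *Mrpl34* are counterparts of bacterial ribosomal proteins. In the small subunit, *Mrps36* (65.0 ± 32.1 FPKM) and *Mrps15* (59.7 FPKM) followed *Mrps21*.

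The lowest member was *Mrpl19*, a large subunit protein with a bacterial counterpart, with 5.99, 4.66 and 3.35 FPKM in WT 1 to 3 and 6.07, 4.48 and 5.40 FPKM in *Npr1+/-* 1 to 3. It ranked last in each library. *Mrpl17* (7.14 ± 1.67 FPKM, SD over 6 libraries) and *Mrpl1* (7.80 ± 1.64 FPKM), which belongs to the stalk where the used tRNA leaves, came before it and overlapped with each other. The lowest members of the small subunit were *Mrps25* (9.90 ± 1.06 FPKM), *Mrps31* (13.4 FPKM) and *Mrps27* (13.6 FPKM), a pentatricopeptide repeat protein. By CPM, which is not divided by length, *Mrps25* ranked 8 and *Mrpl17* ranked 14 of 78, so that the place of these genes rests on the length of their transcripts in the gene models.

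**Figure D1:**
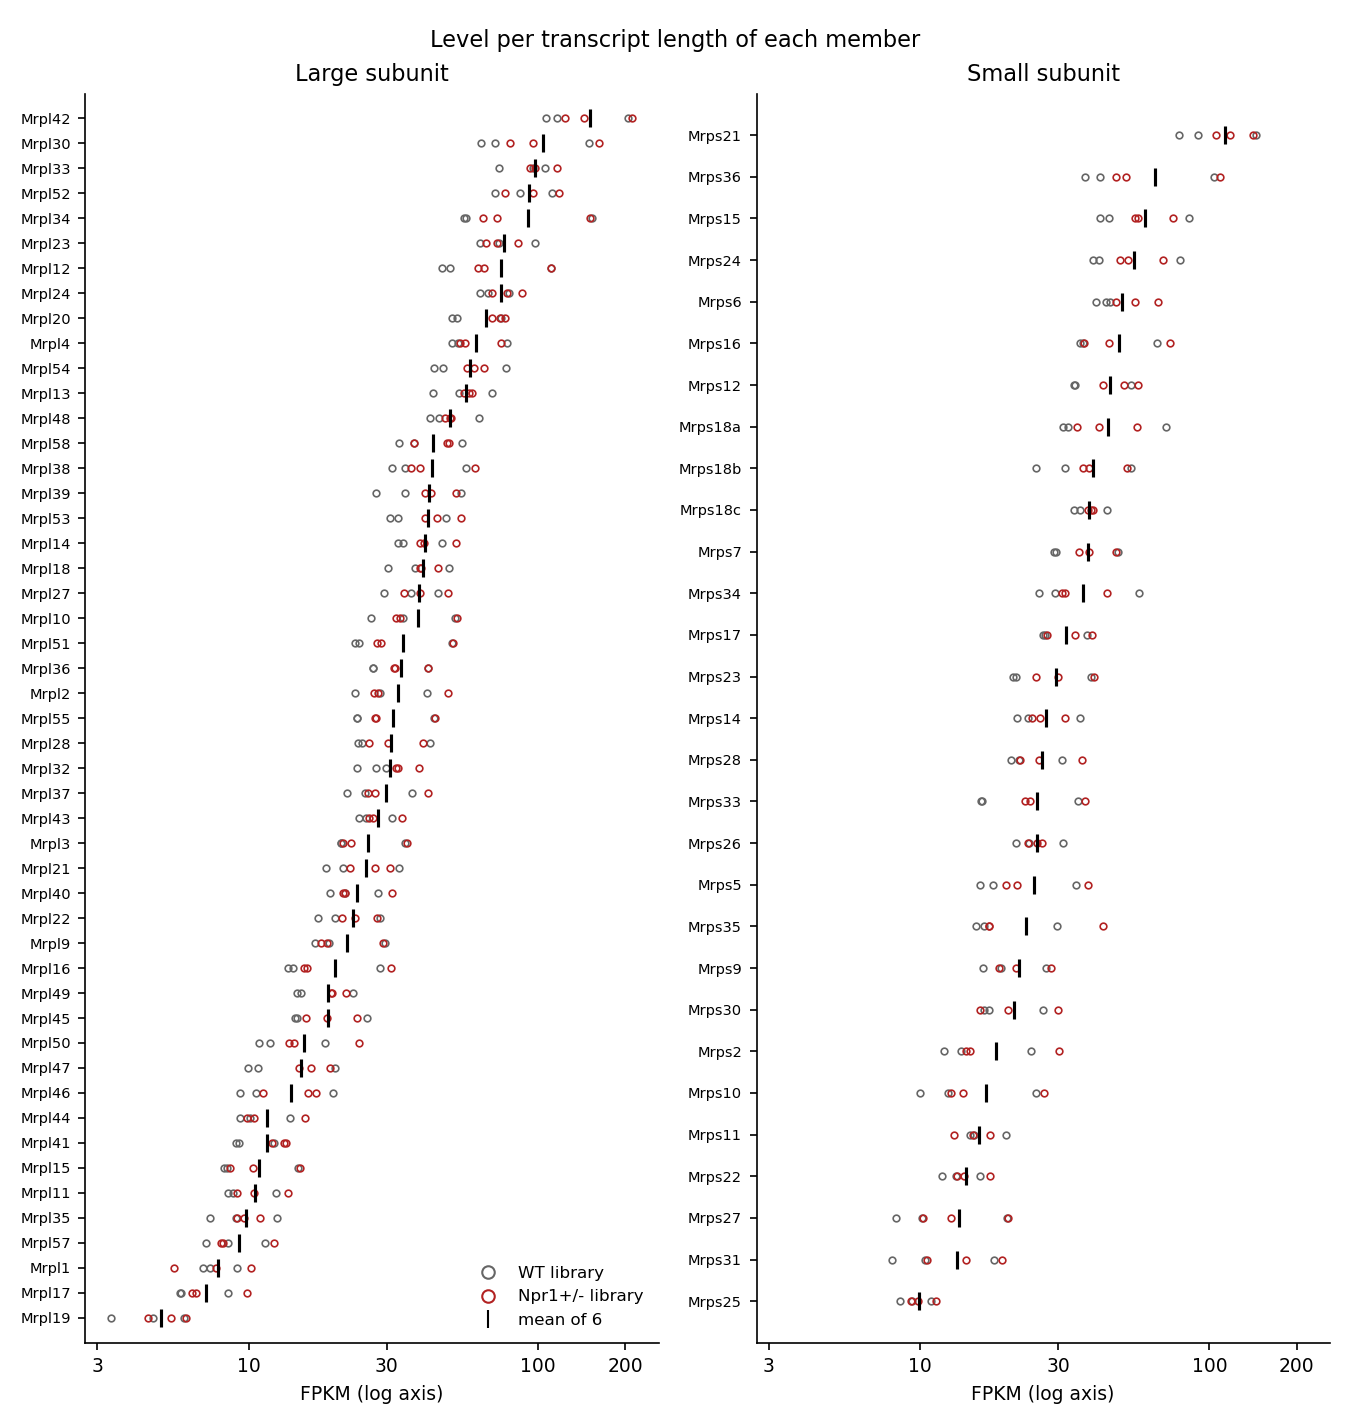
FPKM of each of the 78 members on a log axis, large subunit left and small subunit right, with 1 circle per library (grey WT, red *Npr1+/-*) and a bar at the mean of the 6. Mean FPKM ran from 151 for *Mrpl42* to 4.99 for *Mrpl19*, and the circles of each gene span a far smaller range than the genes.

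The 3 paralogs *Mrps18a*, *Mrps18b* and *Mrps18c* descend from a single bacterial protein, and the product of *Mrps18a* is placed in the large subunit in structures of the mammalian particle, as is that of *Mrps30*. Here both were counted with the small subunit by symbol. The paralogs had means of 44.5 FPKM for *Mrps18a*, 39.5 FPKM for *Mrps18b* and 38.4 FPKM for *Mrps18c* over the 6 libraries, which lay within the spread of *Mrps18a* and *Mrps18b*. *Mrps18a* had 58.7, 26.7 and 26.9 CPM in WT 1 to 3 and 48.9, 29.7 and 34.0 CPM in *Npr1+/-* 1 to 3, whereas *Mrps18c* had 20.6, 15.8 and 17.4 CPM in WT and 19.0, 18.9 and 17.6 CPM in *Npr1+/-* mice. *Mrps18c* had the lowest coefficient of variation of FPKM over the 6 libraries of all members (9.01%), and *Mrps18a* had 35.5%.

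Between the genotypes, no member was called. At thresholds of 0.05 on the adjusted p and 0.5 on the absolute size of the log2 fold change, no gene passed the quasi-likelihood test of edgeR (0 of 13938, 0%), the 78 members included, whose adjusted p lay between 0.999 and 1. An unadjusted p under 0.05 was reached by 1 of 49 large subunit members (*Mrpl32*) and 1 of 29 small subunit members (*Mrps6*), against 412 genes or 2.96% of all tested (1.88% with a higher value). DESeq2 called 16 genes (0.0883% of 18113) and none of the members, of which 0 had an unadjusted p under 0.05, against 3.23% of all genes. On simulated counts without any change between genotypes, DESeq2 made 19 calls. Those counts lacked the shift shared by same-numbered libraries, so that they do not tell whether the 16 calls are false. DESeq2 with the block called 265 genes (1.46%) and again none of the members. The fitted log2 fold changes of the members were small and mostly above 0. They were above 0 in 47 of 49 large subunit members (95.9%) and in 26 of 29 small subunit members (89.7%), against 51.6% of all genes tested. Their medians were 0.16 and 0.19, against 0.01 over all genes, and they ranged from -0.12 to 0.40. The members moved together between libraries, as described further on, so that their counts are not of separate results. Genes of the respiratory chain and ATP synthase leaned the same way, with 86 of 91 above 0 and a median of 0.22.

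With the replicate number as a block, edgeR again called 0 genes. Then 7 of 49 large subunit members (14.3%) and 3 of 29 small subunit members (10.3%) had an unadjusted p under 0.05, against 12.4% of all genes tested. All 10 of them had higher values in *Npr1+/-* aortas, a direction in which 7.36% of all genes passed that threshold. The fold change was above 0 for 47 large and 28 small subunit members, against 51.1% of all genes. The smallest adjusted p of a member was 0.290, for *Mrpl41*, and the standard errors were smaller than without the block.

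**Figure D2:**
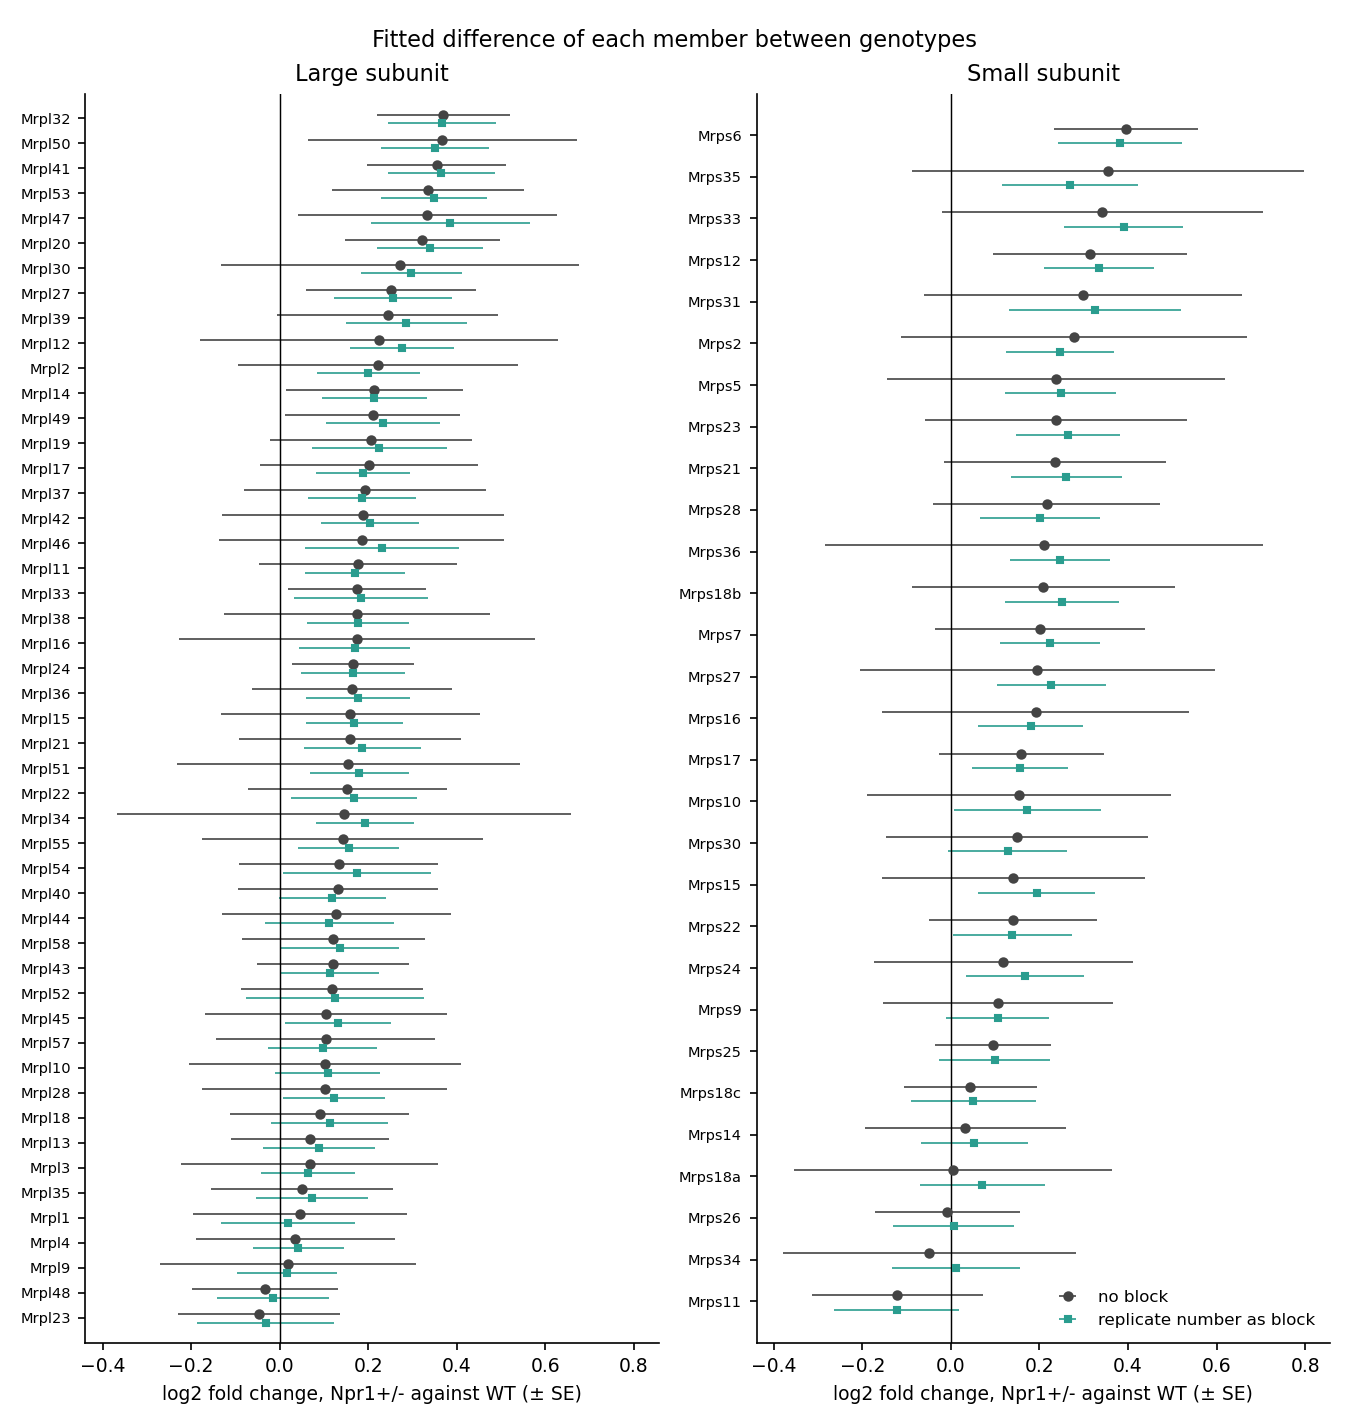
Fitted log2 fold change of each member, *Npr1+/-* against WT, with its standard error as a horizontal bar, without a block (circles) and with a block for the replicate number (squares). In both fits 47 of the 49 large subunit members lie right of 0, and no member was called.

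In only 3 members did the *Npr1+/-* libraries all lie above the WT libraries. These were *Mrpl41* and *Mrpl32* (4.08% of the large subunit) and *Mrps6* (3.45% of the small subunit), against 3.9% of all genes tested. In no member did they all lie below, against 3.58% of all genes. *Mrpl32*, whose product matures by cleavage with the m-AAA protease of the inner membrane before it joins the large subunit, had 21.9, 20.1 and 18.2 CPM in WT 1 to 3 and 29.7, 24.2 and 23.7 CPM in *Npr1+/-* 1 to 3. The lowest *Npr1+/-* library thus lay just above the highest WT library (log2 fold change 0.37, SE 0.15, unadjusted p = 0.045, adjusted p = 0.999, edgeR's quasi-likelihood test).

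*Mrpl41*, a large subunit protein without a bacterial counterpart, had 29.4, 21.4 and 23.0 CPM in WT 1 to 3 and 33.7, 29.4 and 31.3 CPM in *Npr1+/-* 1 to 3. Its highest WT value and its lowest *Npr1+/-* value were both rounded to 29.4 CPM, so that the groups were separated by less than their spread (log2 fold change 0.35, SE 0.16, adjusted p = 0.999). *Mrps6*, the counterpart of a bacterial protein of the small subunit platform, had 30.2, 33.6 and 34.0 CPM in WT 1 to 3 and 43.0, 50.9 and 35.0 CPM in *Npr1+/-* 1 to 3. *Npr1+/-* 3 was close to the WT libraries and the others stood higher (log2 fold change 0.40, SE 0.16, unadjusted p = 0.0465, adjusted p = 0.999, edgeR's quasi-likelihood test). *Mrps6* shares exons with *Slc5a3*, a myo-inositol transporter gene, and the part of that overlap in its counts was not tested.

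The members next in order of p overlapped between genotypes. In the large subunit, *Mrpl20* had a log2 fold change of 0.32 (SE 0.17) and *Mrpl53* of 0.34 (SE 0.22). In the small subunit, *Mrps12*, the counterpart of the bacterial protein in which streptomycin resistance arises, had 0.31 (SE 0.22), *Mrps33* had 0.34 (SE 0.36) and *Mrps21* had 0.23 (SE 0.25). For each of these 5 the adjusted p was 0.999. The error was wide for *Mrps33*, which had 35.6, 16.3 and 17.3 CPM in WT 1 to 3 and 39.6, 24.9 and 23.1 CPM in *Npr1+/-* 1 to 3. WT 1 stood above *Npr1+/-* 2 and 3, and within each number the *Npr1+/-* library was higher. With the block the log2 fold change of *Mrps33* was 0.39 (SE 0.13, unadjusted p = 0.0211, adjusted p = 0.307, edgeR's quasi-likelihood test).

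The 5 members with a log2 fold change under 0 were chosen once their values were known. They were *Mrps11* (-0.12, SE 0.19), *Mrps34* (-0.05, SE 0.33), *Mrpl23* (-0.05, SE 0.18), *Mrpl48* (-0.03, SE 0.16) and *Mrps26* (-0.01, SE 0.16). None of these values exceeded its standard error. *Mrps11* had 20.1, 15.2 and 15.5 CPM in WT and 18.2, 15.5 and 13.0 CPM in *Npr1+/-* libraries.

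Within the replicate numbers the members were shifted together, although nothing but the labels pairs the libraries numbered 2 and 3, and the counts over all 3 pairs rest on that pairing. The *Npr1+/-* library was above the WT library of the same number in all 3 pairs for 26 of 49 large subunit members (53.1%) and 15 of 29 small subunit members (51.7%), against 17.5% of all genes tested. It was below in all 3 pairs for 0 members, against 16.9% of all genes. By pair, 33 of 49 and 20 of 29 members were higher in *Npr1+/-* 1 than in WT 1 (50.3% of all genes), 47 of 49 and 27 of 29 in pair 2 (49.9%), and 43 of 49 and 25 of 29 in pair 3 (50.8%). The summed level of the large subunit members was 2405, 1492 and 1510 CPM in WT 1 to 3 and 2513, 1724 and 1807 CPM in *Npr1+/-* 1 to 3, so that the *Npr1+/-* library had 105%, 116% and 120% of the WT library with its number. The small subunit members summed to 1228, 719 and 745 CPM in WT libraries and to 1289, 869 and 876 CPM in *Npr1+/-* libraries, or 105%, 121% and 118%. Without the pairs, the sums were 1802 ± 522 and 2015 ± 434 CPM for the large and 898 ± 287 and 1011 ± 240 CPM for the small subunit (SD, n = 3), and the difference between genotypes was smaller than the spread within a genotype. The ratio of the large to the small subunit sum stayed between 1.95 and 2.07 in the 6 libraries.

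**Figure D3:**
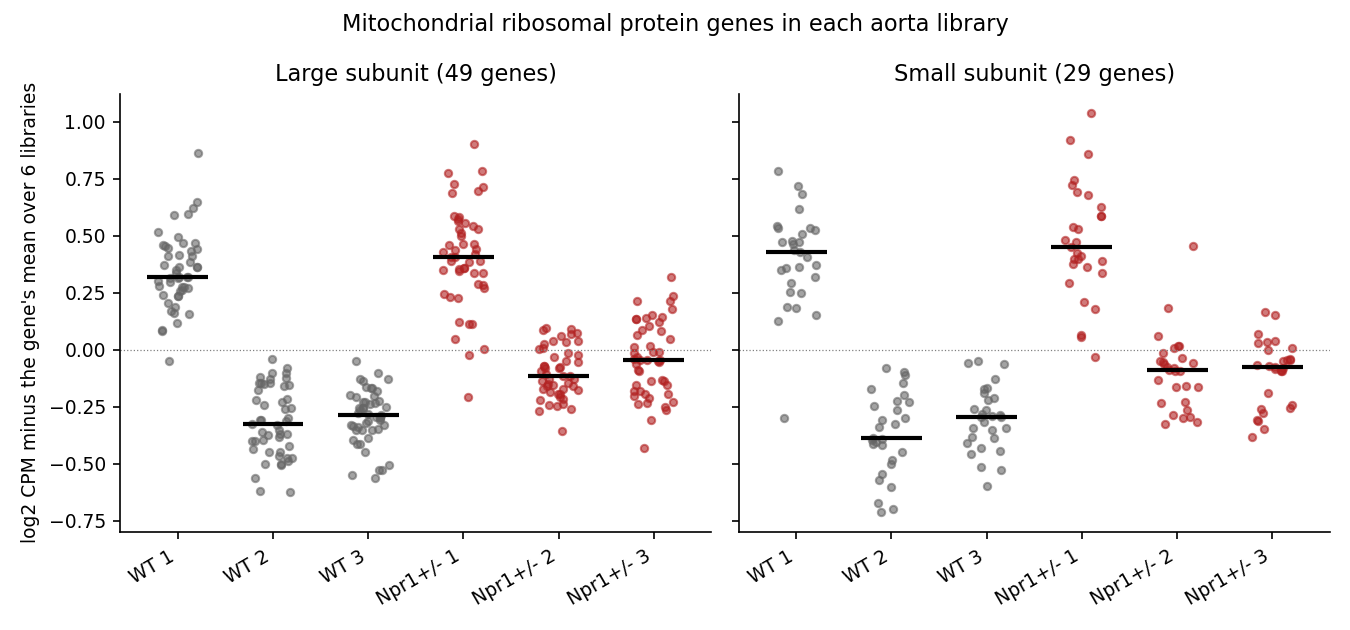
log2 CPM of each member minus its own mean over the 6 libraries, 1 point per gene and library, with the median as a bar. The medians of the large subunit were 0.32 in WT 1 and 0.41 in *Npr1+/-* 1, -0.32 and -0.29 in WT 2 and 3, and -0.11 and -0.05 in *Npr1+/-* 2 and 3.

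Most of the spread within a genotype lay between library 1 and the other libraries. Both libraries numbered 1 lay above the other 4 libraries in 42 of 49 large subunit members (85.7%) and 27 of 29 small subunit members (93.1%), against 23.9% of all genes tested. The ratio of library 1 to the mean of libraries 2 and 3 had a median over the members of 1.56 in WT and 1.41 in *Npr1+/-* mice, against 0.987 and 0.985 over all genes. It was above 1 in both genotypes for 73 of 78 members (93.6%), against 35.4% of all genes, and above 1.5 in both for 28 members (35.9%), against 12.6%. Members with a high ratio in WT tended to have one in *Npr1+/-* mice too, with a Spearman correlation of 0.66 between the 2 ratios over the 78 members, which share their libraries, gene models and scaling. Over all genes the same correlation was 0.64.

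The extremes of this ratio were chosen once their values were known. *Mrpl34* led, with 94.2, 33.6 and 35.9 CPM in WT 1 to 3 and 96.9, 40.5 and 43.5 CPM in *Npr1+/-* 1 to 3, a ratio of 2.71 in WT and 2.31 in *Npr1+/-* mice. *Mrps36* followed, with 70.5, 25.2 and 29.8 CPM in WT and 77.3, 33.2 and 34.6 CPM in *Npr1+/-* libraries. For both genes the libraries numbered 1 stood apart and the genotypes overlapped. *Mrps36* carries a ribosomal name, but its product is known as a part of the oxoglutarate dehydrogenase complex of the citric acid cycle. *Mrpl12*, a protein of the stalk that recruits translation factors and a known partner of the mitochondrial RNA polymerase, had 102, 42.1 and 47.4 CPM in WT and 106, 58.0 and 58.9 CPM in *Npr1+/-* libraries. Its log2 fold change was 0.22 (SE 0.40) without the block and 0.28 (SE 0.12, unadjusted p = 0.049, adjusted p = 0.398, edgeR's quasi-likelihood test) with it. *Mrps35* was the member whose ratio was highest in *Npr1+/-* mice (2.56, against 1.79 in WT), and *Mrpl30* had 2.16 in WT and 1.93 in *Npr1+/-* mice.

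At the other end, 5 members were not above 1 in both genotypes. *Mrps6* had a ratio of 0.892 in WT and 1.00 in *Npr1+/-* mice, and was the only member with a WT ratio under 1. *Mrpl52* had 1.40 in WT and 0.753 in *Npr1+/-* mice, *Mrps25* had 1.20 and 0.916, *Mrpl33* had 1.23 and 0.911, and *Mrpl23* had 1.41 and 0.987. *Mrpl52* had 42.1, 32.3 and 27.9 CPM in WT 1 to 3 and 30.4, 36.9 and 43.7 CPM in *Npr1+/-* 1 to 3, so that its order of libraries was opposite in the genotypes.

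**Figure D4:**
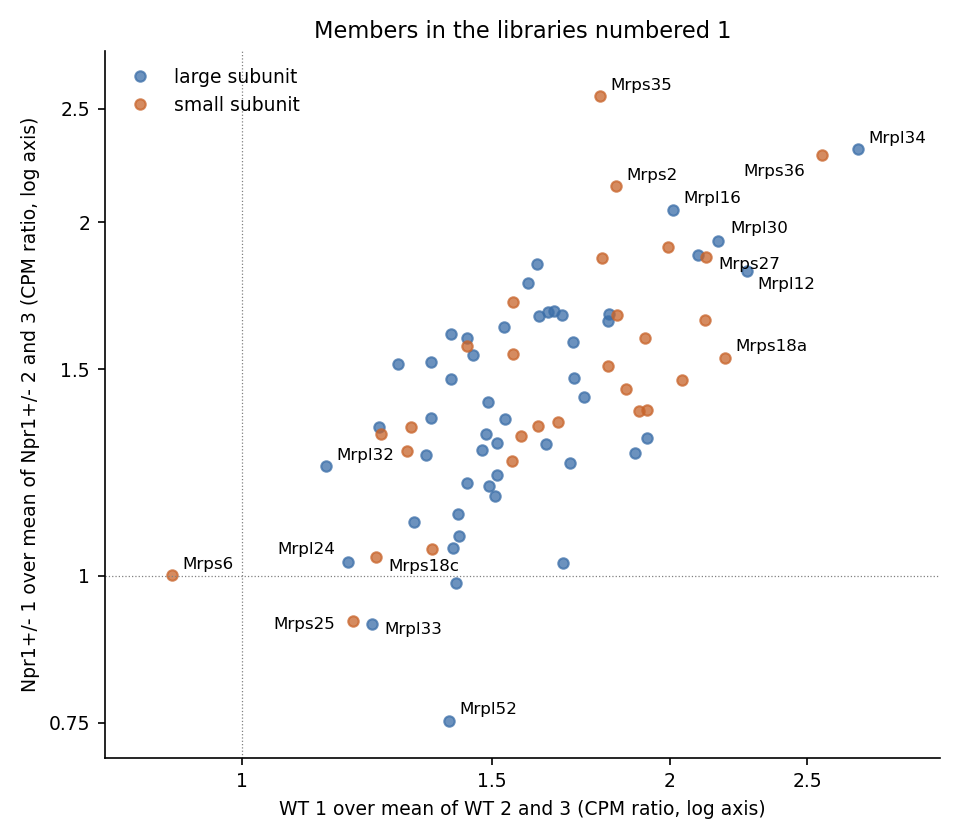
Ratio of the CPM of library 1 to the mean of libraries 2 and 3 for each member, in WT (horizontal, log axis) and *Npr1+/-* mice (vertical, log axis), with dotted lines at 1. Of the 78 members, 73 lie above 1 on both axes, with *Mrpl34* (2.71 and 2.31) at the upper right, and *Mrps6* (0.892 and 1.00) at the left is among the 5 that do not.

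In whole tissue, a larger share of cells rich in a transcript cannot be told apart from more of it per cell, and markers of other cell types moved with the libraries numbered 1. The 7 brown fat markers summed to 3554, 537 and 803 CPM in WT 1 to 3 and to 3536, 1007 and 1038 CPM in *Npr1+/-* 1 to 3, and all 7 were higher in both libraries numbered 1 than in the other 4. *Ucp1*, the uncoupling protein that defines brown fat, had 1309, 145 and 312 CPM in WT and 1400, 379 and 415 CPM in *Npr1+/-* libraries. The order of the 6 libraries in the sum of the brown fat markers thus resembled that of the members, including the higher values of *Npr1+/-* 2 and 3 over WT 2 and 3. Not every marker had these higher values. *Dio2* had 73.1 CPM in *Npr1+/-* 2 against 94.9 in WT 2, and *Cpt1b* had 98.5 CPM in *Npr1+/-* 3 against 110 in WT 3. The part of brown fat in the members' levels was not tested. The 7 white fat markers summed to 7049, 1273 and 1595 CPM in WT and to 11358, 3451 and 2777 CPM in *Npr1+/-* libraries. This sum was 161%, 271% and 174% of the WT partner, whereas the brown fat sum was 99.5%, 188% and 129%. With the block, 6 of the 7 were higher at an unadjusted p under 0.05 (edgeR), against 7.36% of all genes, and none was called. In both libraries numbered 1, 5 of the 7 lay above the other 4 libraries. *Lep* was lower in *Npr1+/-* 3 (6.04 CPM) than in WT 3 (21.6 CPM). The part of white fat in the members' levels was not tested. The 8 smooth muscle markers went the other way from the fat markers. They summed to 21157, 35779 and 38750 CPM in WT and to 12953, 33790 and 34824 CPM in *Npr1+/-* libraries. No marker of these 3 lists was at 0 in any library.

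Of the remaining marker lists, the erythroid list summed to 7561 and 6288 CPM in the libraries numbered 1 and to between 631 and 1314 CPM in the other 4, and the macrophage list to 547 and 390 CPM against 221 to 351 CPM. The neuron list had 579 CPM in *Npr1+/-* 1 and 78.5 to 98.3 CPM elsewhere, where Th was at most 0.127 CPM, and the Schwann cell list had 269 CPM in *Npr1+/-* 1 and 59.1 to 95.2 CPM elsewhere. The endothelial list had 759, 525 and 881 CPM in WT and 1393, 977 and 914 CPM in *Npr1+/-* libraries, so that it was higher in *Npr1+/-* aortas without overlap, with 183%, 186% and 104% of their WT partners. Of its 8 markers, 7 had a log2 fold change above 0, and 3 had an unadjusted p under 0.05 (6 with the block, 5 of them higher), although none was called. Like the sums of the members, the sum of this list was thus higher in each *Npr1+/-* library than in its WT partner. Single markers differed from the sum. *Cdh5* (97.6 against 110 CPM), *Tek* (36.9 against 46.2), *Kdr* (29.7 against 34.5) and *Erg* (41.2 against 58.4) were lower in *Npr1+/-* 3 than in WT 3. *Erg* was lower in all 3 pairs. The part of endothelial cells in the members' levels was not tested. The fibroblast list ranged from 2485 to 4662 CPM, the cardiac muscle list from 72.4 to 83.5 CPM, the skeletal muscle list from 6.34 to 10.3 CPM and the lymphocyte list from 1.84 to 6.91 CPM. Single genes differed from these sums. *Actc1* of the cardiac list had 3.35, 3.15 and 1.11 CPM in WT and 28.6, 9.74 and 18.4 CPM in *Npr1+/-* libraries. *Acta1* of the skeletal list had 1.09, 1.23 and 0.679 CPM against 4.85, 3.80 and 2.10 CPM. Neither was called, and 3 of the 6 tested cardiac markers had a log2 fold change above 0. Many genes besides the members thus set the libraries numbered 1 apart, and the part of these cell types in the members' levels was not tested.

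**Figure D5:**
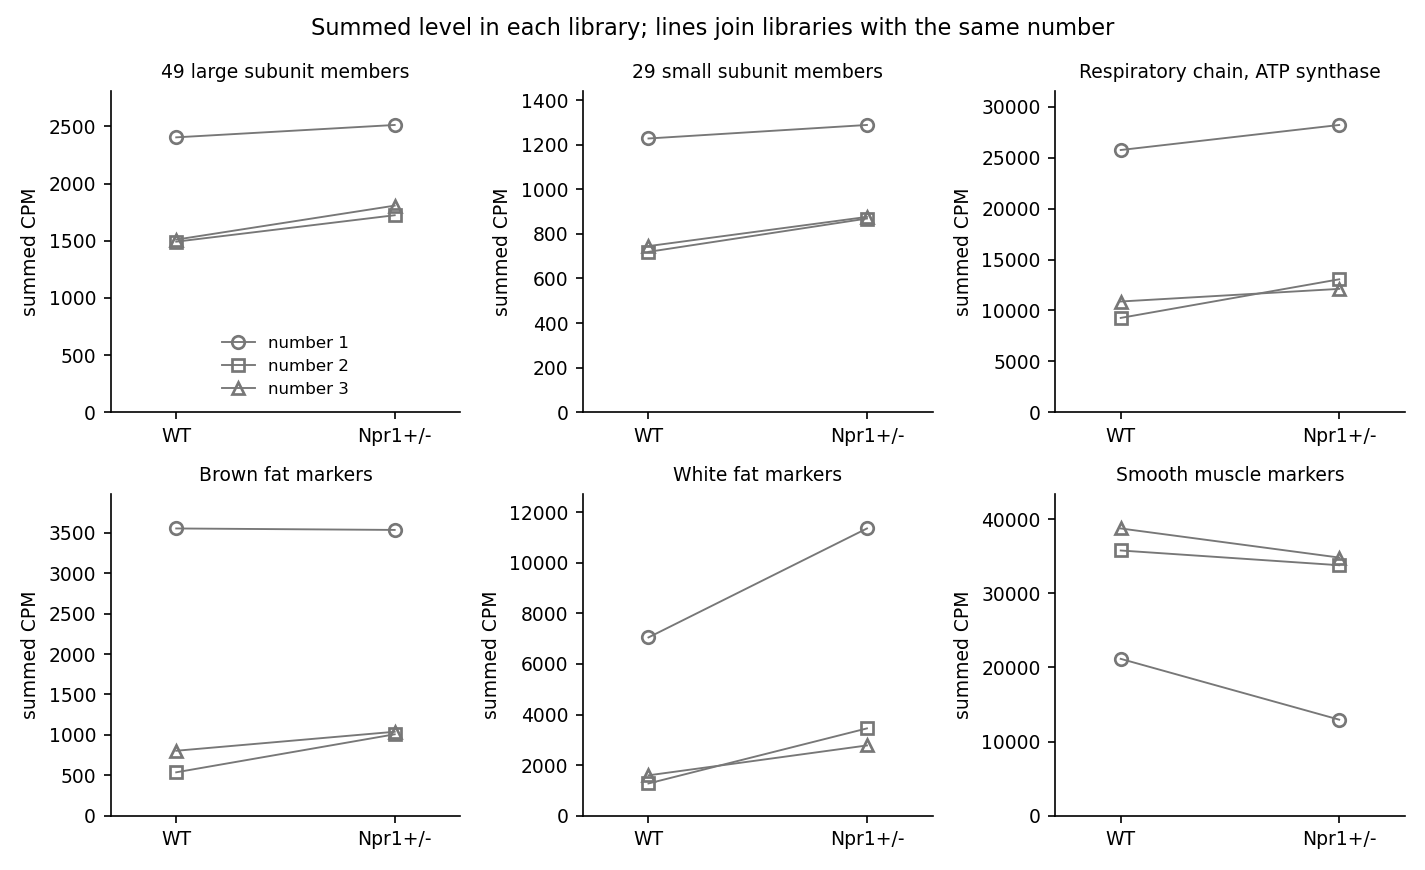
Summed CPM of the large and small subunit members, of genes of the respiratory chain and ATP synthase, and of 3 marker lists, in WT and *Npr1+/-* libraries, with lines that join libraries of the same number. Members, respiratory chain genes and fat markers were highest in the libraries numbered 1, and smooth muscle markers were lowest there.

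Without both libraries numbered 1, which was tried after the data were seen, the members were higher in *Npr1+/-* aortas in 75 of 78 cases, against 51.0% of all genes. The median log2 fold change was 0.23 in each subunit. In libraries 2 and 3, both *Npr1+/-* values lay above both WT values for 39 of 49 large subunit members (79.6%) and 22 of 29 small subunit members (75.9%), against 22.9% of all genes tested, and in no member did they lie below, against 21.8%. An unadjusted p under 0.05 was reached by 12 large and 8 small subunit members, which together are 25.6% of the members against 11.5% of all genes tested. All 20 had higher values in *Npr1+/-* libraries, against 6.43% of all genes. The members moved together from library to library, so that these counts are not of separate results. A common shift of 1 library would move most of them at once. Still 0 members were called, against 1 gene in all (0.00717%), and the smallest adjusted p of a member was 0.265, for *Mrpl20* (31.8 and 34.7 CPM in WT 2 and 3, 44.8 and 46.1 CPM in *Npr1+/-* 2 and 3). The sum of the brown fat markers also lay higher in these *Npr1+/-* libraries, at 188% and 129% of WT 2 and WT 3, although not every marker did. That of the white fat markers was at 271% and 174%, with *Lep* lower in *Npr1+/-* 3 than in WT 3.

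The median of each subunit had the opposite sign when *Npr1+/-* 1 was left out without its partner, and in no other fit without a single library. When *Npr1+/-* 1 alone was left out, 27 of 78 members had a log2 fold change above 0 (34.6%, against 43.5% of all genes), with a median of -0.06 in the large and -0.05 in the small subunit. When WT 1 alone was left out, all 78 had one, with medians of 0.41 and 0.50. Without WT 2 or WT 3 the count was 50 and 51, and without *Npr1+/-* 2 or *Npr1+/-* 3 it was 76 and 73. Leaving out 1 library leaves the other library of its number alone. With the block, and also without both libraries numbered 1, 75 of 78 members were above 0. Both of these fits take libraries of the same number together, which the labels do not establish. The cause of the turn without *Npr1+/-* 1 was not tested. No member was called in any of these fits.

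The rest of the mitochondrial translation machinery was counted from lists, and none of it was called. The 5 subunits of the mitochondrial ribosome that carry other symbols were *Dap3*, *Ptcd3*, *Chchd1*, *Aurkaip1* and *Gadd45gip1*. All 5 had a log2 fold change above 0, against 51.6% of all genes tested, with a median of 0.16. All 5 were also higher in both libraries numbered 1 than in the other 4, against 23.9% of all genes tested. *Ptcd3*, a pentatricopeptide repeat protein of the small subunit, had 54.2, 39.2 and 41.6 CPM in WT 1 to 3 and 68.8, 44.5 and 44.3 CPM in *Npr1+/-* 1 to 3. Of 14 translation factors and regulators of mitochondrial messenger RNA, 13 had a log2 fold change above 0 (median 0.20). With the block, 1 of the 14 reached an unadjusted p under 0.05, against 12.4% of all genes tested. That gene was *Mrrf*, the factor that recycles the ribosome after termination, with 24.4, 17.5 and 18.6 CPM in WT and 34.9, 23.0 and 22.2 CPM in *Npr1+/-* libraries (log2 fold change 0.41, SE 0.23, adjusted p = 0.999 without and 0.275 with the block, edgeR's quasi-likelihood test).

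The lists farther from the ribosome itself were more mixed. Of 27 factors of ribosome assembly and modification of its RNA, 18 had a log2 fold change above 0 (median 0.11), and the smallest p was that of *Ybey*, a nuclease for ribosomal RNA (0.50, SE 0.22, unadjusted p = 0.0568, edgeR's quasi-likelihood test). Of 22 aminoacyl-tRNA synthetases and related enzymes of mitochondria, 14 were above 0 (median 0.06). Over all genes tested, 51.6% were above 0, and 2.96% had an unadjusted p under 0.05 without the block. The only gene of these lists with an unadjusted p under 0.05 without the block was *Mars2*, the mitochondrial methionyl-tRNA synthetase, which was lower (8.10, 9.07 and 8.40 CPM in WT, 5.56, 7.28 and 5.47 CPM in *Npr1+/-* libraries, log2 fold change -0.48, SE 0.20, adjusted p = 0.999).

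Of the 17 regulators of mitochondrial transcription and biogenesis, 11 were above 0 (median 0.05), against 51.6% of all genes tested. None reached an unadjusted p under 0.05. *Nrf1* and *Gabpa*, whose elements were counted in the promoters, had between 24.7 and 36.1 CPM and between 42.1 and 53.1 CPM in the 6 libraries, with log2 fold changes of -0.01 (SE 0.19) and -0.08 (SE 0.13). *Ppargc1a*, a coactivator of both that is abundant in brown fat, was chosen once its values were known. It had 65.6, 11.0 and 8.09 CPM in WT 1 to 3 and 52.2, 13.4 and 15.4 CPM in *Npr1+/-* 1 to 3, again highest in the libraries numbered 1. Of the 17 regulators, 9 were higher in both libraries numbered 1 than in the other 4, against 23.9% of all genes tested. *Pprc1* and *Nrf1* went the other way and were lowest in WT 1 and *Npr1+/-* 1. *Pprc1* had 40.3 and 45.8 CPM there and 59.1 to 72.4 CPM elsewhere. Genes of the mitochondrial genome itself were not analysed here.

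Against other families, also chosen by symbol after the data were seen, the ratio of the members lay between those of the respiratory chain and of the cytosolic ribosome. The 91 genes of the respiratory chain and ATP synthase summed to 25768, 9265 and 10878 CPM in WT 1 to 3 and to 28230, 13061 and 12118 CPM in *Npr1+/-* 1 to 3, so that the libraries numbered 1 had 2.56 and 2.24 times the mean of the others. The members had 1.60 and 1.42 times in the large subunit and 1.68 and 1.48 times in the small subunit. The 82 ribosomal proteins of the cytosol summed to 32522, 33131 and 27878 CPM in WT and to 25537, 33165 and 37190 CPM in *Npr1+/-* libraries, with ratios of 1.07 and 0.726. A log2 fold change above 0 was found in 86 of the 91 respiratory chain genes, with a median of 0.22. It was found in 64 of the 82 cytosolic ribosomal proteins, with a median of 0.05, against 51.6% of all genes tested. The medians of the members were 0.16 in the large and 0.19 in the small subunit. These comparisons of families are descriptions without a test.

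The neighbours that start next to a member on the opposite strand were counted in the same way. Of the 17 such neighbours that were tested, 8 had a ratio of library 1 to the others above 1 in both genotypes, against 35.4% of all genes. A log2 fold change above 0 was found in 10 of the 17, against 51.6% of all genes tested. *Sars2* beside *Mrps12* and *Ptcd2* beside *Mrps27* had ratios above 1 (1.84 in WT and 1.69 in *Npr1+/-* mice for *Sars2*, 1.52 and 2.02 for *Ptcd2*), whereas *Ppp1r10* beside *Mrps18b* had 0.717 and 0.675. *Mitd1*, which starts 66 bp from *Mrpl30*, had 0.889 in WT and 0.829 in *Npr1+/-* mice, against 2.16 and 1.93 for *Mrpl30*. The pairs share a start region and the libraries, and no test of the difference was made.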

How the data were processed

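RNA of whole aortas from WT and *Npr1+/-* male mice, in 3 libraries per genotype, was sequenced on the BGISEQ-500 platform. The authors filtered reads with SOAPnuke, aligned them to a coding gene set with Bowtie2 and deposited the estimated counts of RSEM, without normalization, and its FPKM, which the authors scaled by transcript length and library size. The submitters' processing notes name mm10 and DESeq2 1.4.5. The authors' group means were not used. Columns were matched to samples by genotype and replicate number, where the column name Knockdown was taken as the *Npr1+/-* genotype.

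Estimated counts were rounded and tested in R 4.3.3 with edgeR 4.0.16 (TMM, filter with a minimum count of 10, quasi-likelihood test, Benjamini-Hochberg adjustment over 13938 genes). Calls needed an adjusted p under 0.05 together with a log2 fold change of 0.5 or more in size. CPM are counts scaled by TMM. Alternatives were DESeq2 1.42.0, its size factors, no filter, limma 3.58.1 on log2(FPKM + 0.1) and log2(FPKM + 1), the replicate number as a block, and each library left out. Symbols and promoters came from RefSeq, start sites and exons from GENCODE M21, all on GRCm38. Precision is limited by 3 libraries per genotype and by the counts per gene, of at least 140.

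Members and lists were chosen with earlier results of these data known. Named members were, in each subunit, the 4 with the smallest p, the 3 with the highest and the 3 with the lowest mean FPKM, those whose genotypes did not overlap, the Mrps18 paralogs, *Mrpl12* and *Mrps36*. In the lists up to 4 genes with the smallest p could be named. Mtrfr, Myl2, Trbc2 and Ahsp of the lists were not analysed here.

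The replicate numbers were checked by correlating each library's deviation from its genotype mean over 13938 genes. The correlation was 0.64, 0.39 and 0.24 between same-numbered libraries and between -0.58 and 0.44 between the others, so that the numbers were used as pairs, although nothing in the labels says what they mark. WT 3 correlated better with *Npr1+/-* 2 (0.44) than with *Npr1+/-* 3. Over the 78 members the same-numbered values were 0.67, 0.52 and -0.05, while WT 2 with *Npr1+/-* 3 had 0.52 and WT 3 with *Npr1+/-* 2 had 0.48, so that the data do not tell the numbers 2 and 3 from their swap. The fits were also tested on simulated counts with known changes between the genotypes. With no change simulated, DESeq2 made 19 calls, more than the 16 on the real counts. Likewise edgeR made 0 calls without the block and 1 with it. DESeq2 with the block was not simulated. The simulated libraries were drawn independently, without the shift shared by same-numbered libraries. They therefore cannot tell how many of the 16 real calls are false.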

Additional observations from a re-analysis of the deposited data

How the results depend on the processing

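The number of genes called moved from 0 to 16 with DESeq2, to 265 with DESeq2 and the replicate block, and to 1 without both libraries numbered 1, and no member was among them. The medians and sums of both subunits kept their direction in the other alternatives with all 6 libraries. Leaving out single libraries, the median log2 fold change ranged from -0.06 to 0.41 in the large and from -0.05 to 0.50 in the small subunit, and that of the summed level from -0.03 to 0.42 and from -0.04 to 0.47. With the replicate block in edgeR, 0 genes were called and the medians were 0.18 and 0.19. The block turned *Mrps34* to 0.0112 (edgeR) and 0.0126 (DESeq2) and *Mrps26* to 0.0062 and 0.0059, and changed no call. Limma gave -0.0359 and -0.0289 for *Mrpl1* and 0.0052 and 0.0035 for *Mrps34* with pseudocounts of 0.1 and 1, and the fit without a filter gave -0.0152 for *Mrps18a*. Without both libraries numbered 1, *Mrpl1* was at -0.0496, *Mrps34* at 0.17, *Mrps26* at 0.13, *Mrpl23* at 0.15 and *Mrpl48* at 0.12. The cause of these turns was not tested.

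With a library left out, the sign also turned in 19 named members, whose log2 fold changes ranged from -0.12 to 0.53 (*Mrpl42*), -0.14 to 0.74 (*Mrpl30*), -0.0776 to 0.40 (*Mrpl17*), -0.20 to 0.24 (*Mrpl1*), -0.33 to 0.81 (*Mrps36*), -0.055 to 0.53 (*Mrps15*), -0.19 to 0.65 (*Mrps27*), -0.26 to 0.48 (*Mrps18a*), -0.0114 to 0.57 (*Mrps18b*), -0.0426 to 0.15 (*Mrps18c*), -0.15 to 0.73 (*Mrpl12*), -0.40 to 0.79 (*Mrpl34*), -0.27 to 0.69 (*Mrps35*), -0.0274 to 0.30 (*Mrpl52*), -0.26 to 0.0167 (*Mrps11*), -0.28 to 0.38 (*Mrps34*), -0.12 to 0.15 (*Mrps26*), -0.18 to 0.14 (*Mrpl23*) and -0.14 to 0.15 (*Mrpl48*).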
